A study of Mus musculus with 37 samples.

Results

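The genes described here are 58 mouse genes that make ribosomes: the core proteins of the small nucleolar ribonucleoproteins (snoRNPs), the assembly factors of the small and of the large ribosomal subunit, and RNA polymerase I. They were listed by name and role from the 29294 gene symbols of 4 RNA-seq tables; no measured value entered the rule, but the list was drawn up with earlier results of these data known. All 58 were listed in the tables of ZH germinal vesicle (GV) oocytes, CabZ GV oocytes and CabZ 2-cell embryos. The table of injected 2-cell embryos held 57, and Mdn1 was not analysed there. By role, 3 members form the box C/D snoRNP core, 4 the box H/ACA snoRNP core, 3 are abundant nucleolar proteins with several functions, 25 act in small subunit assembly, 18 in large subunit assembly and 5 belong to RNA polymerase I.

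Ribosomes are built in the nucleolus, where RNA polymerase I transcribes a long precursor that is cut and trimmed into the 18S, 5.8S and 28S rRNAs. Box C/D snoRNPs methylate the precursor and box H/ACA snoRNPs convert chosen uridines to pseudouridine, while a large processome folds and cuts the small subunit part and a series of GTPases, helicases and AAA ATPases matures the large subunit. A growing oocyte stores ribosomes for the embryo, the nucleolus of a full-grown GV oocyte is largely inactive, and new rRNA synthesis starts again during the 2-cell stage in the mouse.

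The study asked what the Hira complex, a chaperone that places histone H3.3 on DNA outside S phase, does in the oocyte and the early embryo. ZH KO oocytes lacked Hira and CabZ KO oocytes lacked Cabin1, a partner of Hira in that complex, because a Zp3-Cre transgene, active in growing oocytes, cut a floxed allele. The ZH Het and CabZ Het controls carried the heterozygous genotype of the same line. GV oocytes came from both lines and 2-cell embryos from the CabZ line, with 4 libraries per genotype; how those embryos were made is not given in the sources used here. In the fourth experiment wild-type GV oocytes received Zscan4d RNA (3 libraries) or GFP RNA (4 libraries), were matured in culture, activated without sperm and collected at the 2-cell stage. All groups are labelled C57BL/6. The study's methods describe RNA libraries of pooled oocytes, whereas the sample records speak of single cells, so whether a value stands for a pool or for one cell is not settled; the ATAC-seq libraries came from pooled oocytes. The sample records do not say whether libraries of a group came from separate females, and p-values measure the spread between these libraries, which may be technical.

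All numbers of reads here are estimates from normalised values, taken as multiples of a step that the low values of a library share. Per library 76.1 to 87.0% of low values lay near whole multiples. FPKM and CPM do not use this step. Estimated reads on genes numbered 8996475 to 15081600 per ZH library, 9115439 to 12468242 per CabZ GV library, 5819240 to 8238889 per CabZ 2-cell library and 9885204 to 21868932 per injected library. Levels are given as FPKM, fragments scaled to the length of the whole gene span and to the library's depth, and sums over genes as CPM, reads scaled to the library's depth alone. "Rose" and "fell" are used where limma on log2(FPKM + 1) gave an adjusted p below 0.05, and fold changes on that scale understate changes of low genes. Cabin1 had 117 to 209 reads in CabZ Het oocytes and 14 to 57 in CabZ KO oocytes, and 215 to 443 against 44 to 125 in 2-cell embryos. Cabin1 reads were also lower in ZH KO oocytes (118 to 194) than in ZH Het oocytes (393 to 671). Hira reads were lower in CabZ KO (8 to 32) than in CabZ Het 2-cell embryos (143 to 199). Lower Cabin1 reads were thus not particular to the CabZ line. Hira was near 0 in both ZH genotypes (2 to 14 and 0 to 13 reads), so its reads did not check the ZH labels. Zscan4d was not higher in the libraries labelled Zscan4 (4896 to 8349 reads) than in the GFP libraries (8656 to 11082). These reads are not scaled to depth. Its FPKM overlapped, at 70.3 to 84.3 in libraries labelled Zscan4 and 69.4 to 149 in GFP libraries. The study reports successful overexpression in the injected oocytes, measured on RNA and protein against uninjected oocytes. The libraries here are of 2-cell embryos, so their Zscan4d levels did not test that result.

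The plot of summed levels gives the place of these genes in each library. In GV oocytes they held 4963 to 5350 CPM in ZH Het and 4100 to 5667 CPM in CabZ Het libraries. CabZ Het 2-cell libraries held 7275 to 10443 CPM and CabZ KO 2-cell libraries 2312 to 3738 CPM, with no overlap between the genotypes. In GFP-injected parthenogenetic 2-cell libraries the sum was 3238 to 3568 CPM. The tables were normalised separately, so levels of different tables stand side by side without a test.

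**Figure D1:**
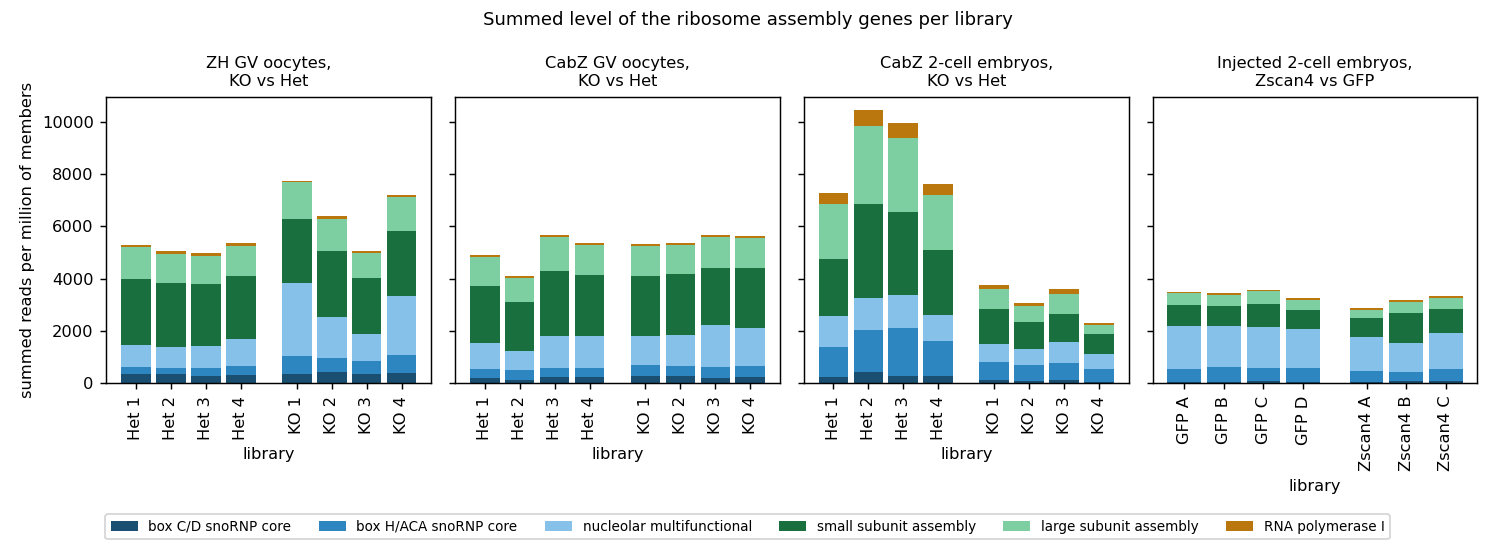
Stacked bars give the summed CPM of the members in each of the RNA-seq libraries (x axis, group and replicate), coloured by class, in 4 panels for the 4 experiments. CabZ KO 2-cell libraries (2312 to 3738) lie below every CabZ Het 2-cell library (7275 to 10443), while CabZ KO and Het GV libraries overlap.

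Compared per kilobase of exon, the members differed widely in GV oocytes. Npm1 (nucleophosmin, a nucleolar chaperone), Nop10 (a small box H/ACA protein) and Emg1 (a methyltransferase of 18S rRNA) led in CabZ Het oocytes with 142, 131 and 123 on that scale (reads per exon kilobase, scaled to the library's depth). Mdn1 (midasin, a giant AAA ATPase that remodels the pre-60S particle) was lowest at 0.0469. In CabZ Het 2-cell embryos Nop10 (646), Nhp2 (471) and Nop16 (266) led. Fbl, fibrillarin, the methyltransferase of the box C/D particle, ranked from 54 to 57 in every table, with between 1 and 65 reads per library, while its partner Nop56 had 126 to 3479. Fbl was under the filter in every table.

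In CabZ 2-cell embryos the loss of Cabin1 went with lower levels across the whole set. Of 44 members tested, 39 fell in CabZ KO embryos, 1 rose (Rrn3) and 4 did not pass the test (Tsr1, Utp14a, Las1l and Dkc1), against 30.9% of all 7798 genes tested that fell and 25.2% that rose. The median log2 fold change of the members was -1.30, beside -0.11 for all genes tested. Of the members, 26 fell more than 2-fold, a share to be read against 20.4% of all genes. Levels are shares of a library, so less RNA of the members and more RNA of other genes cannot be told apart. For 11 tested members the mean reached 1 FPKM only in Het embryos, so they entered through the group in which they were high. Among them are Nop2, Rrp1 and Wdr12 (large subunit), Rrp9, Utp6, Utp18 and Wdr36 (small subunit), Gar1 and Ddx21. The class counts below include them. Among the 32 members with means of at least 1 FPKM in both genotypes, 29 fell and none rose. KO libraries lay below every Het library for 35 of the 44, compared with 28.1% of all genes tested, and above every Het library for 1 (Rrn3), compared with 22.9%.

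RNA polymerase I subunits were among the members with the greatest decreases. Polr1e, a subunit of the dimer that helps the enzyme start and elongate, was at 9.31, 12.8, 13.9 and 9.58 FPKM in Het and at 1.23, 0.7102, 2.12 and 0.153 FPKM in KO embryos. Every KO library was below every Het library (log2 fold change -2.67, SE 0.30, adjusted p = 0.000239, a 10.9-fold lower mean FPKM). Polr1c, an assembly subunit shared with RNA polymerase III, was at 46.7, 71.1, 65.9 and 42.3 FPKM in Het and 11.01, 9.65, 13.6 and 5.19 FPKM in KO embryos. It also fell without overlap (-2.44, SE 0.29, adjusted p = 0.000302).

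The catalytic subunits themselves lay under the filter of a mean of 1 FPKM. Polr1a, the largest subunit, was at 0.215 to 0.270 FPKM in Het and 0.0674 to 0.122 FPKM in KO embryos, and Polr1b, the second largest, at 0.475 to 1.15 against 0.134 to 0.299 FPKM. Both separated the genotypes (exact permutation p = 0.0286 each, two-sided and unadjusted, the smallest that 4 against 4 libraries allow). Rrn3, the initiation factor TIF-IA that ties the polymerase to its promoter, went the other way, at 0.740, 1.16, 0.881 and 0.921 FPKM in Het and 1.65, 1.65, 2.12 and 2.07 FPKM in KO embryos. It rose (0.58, SE 0.16, adjusted p = 0.0127) and was the one member to rise; its mean reached 1 FPKM only in KO embryos, the group in which it is high. Of the other RNA polymerase I genes, which comprise further subunits, shared subunits and promoter factors, 10 of 12 tested fell.

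Among large subunit factors 12 of 13 tested fell, with a median log2 fold change of -1.38. Nop16, a factor of early pre-60S particles, was at 61.0, 101, 116 and 54.9 FPKM in Het and 9.71, 7.62, 13.3 and 3.81 FPKM in KO embryos. On log2(FPKM + 1) it had the largest change of any member (-3.17, SE 0.37, adjusted p = 0.000265), and its mean FPKM was 9.66-fold lower, a smaller ratio than that of Polr1e. Rpf2, which with Rrs1 brings the 5S RNA particle into the pre-60S subunit, was at 8.50, 12.1, 13.9 and 9.97 FPKM in Het and 1.25, 1.38, 2.60 and 0.354 FPKM in KO embryos (-2.40, SE 0.29, adjusted p = 0.000314). Its partner Rrs1 fell as well (-1.65).

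Ebna1bp2, a further early 60S factor, was at 46.4, 71.6, 67.5 and 42.8 FPKM in Het and 18.2, 16.1, 13.6 and 8.05 FPKM in KO embryos, again without overlap (-1.97, SE 0.28, adjusted p = 0.000524). The other large subunit factors that fell more than 2-fold, from nucleolar steps to export, were Rpf1 (-1.66), the nuclear export adaptor Nmd3 (-1.51), the GTPase Gtpbp4 (-1.38), the helicase Ddx18 (-1.37) and Rrp1 (-1.34). Rrp1 reached a mean of 1 FPKM only in Het embryos (2.34 FPKM, against 0.243 FPKM in KO embryos). Bop1, a member of the PeBoW complex that matures 5.8S and 28S rRNA, was under the filter at 0.129 to 0.841 FPKM in Het and 0.00709 to 0.113 FPKM in KO embryos (exact permutation p = 0.0286). Mdn1 was likewise separated, at 0.163 to 0.326 against 0.0552 to 0.137 FPKM (exact permutation p = 0.0286).

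In the small subunit class 17 of 19 tested members fell, with a median of -1.11. Emg1 was at 33.4, 76.4, 65.9 and 47.4 FPKM in Het and 12.5, 7.18, 12.1 and 10.9 FPKM in KO embryos (-2.24, SE 0.29, adjusted p = 0.000336). Nob1, the nuclease that makes the final 3' cut of 18S rRNA, was at 6.73, 13.4, 10.7 and 7.18 FPKM in Het and 4.03, 2.30, 1.36 and 1.27 FPKM in KO embryos (-1.73, SE 0.31, adjusted p = 0.00151). Pno1, which holds Nob1 on the pre-40S particle, fell too (-1.46). All of these separated the genotypes.

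The other small subunit factors that fell more than 2-fold were Ltv1 (-1.65), Imp3 (-1.49), Utp15 (-1.47), Wdr43 (-1.42), Rrp9 (-1.42), Ddx52 (-1.41) and Utp3 (-1.11). Rrp9 reached a mean of 1 FPKM only in Het embryos (3.63 FPKM, against 0.727 FPKM in KO embryos). Imp3 is a U3 snoRNP protein of the Mpp10 complex, Rrp9 binds the U3 RNA, and Utp15 and Wdr43 belong to the subcomplex that meets the nascent transcript first. Heatr1, the large scaffold of that subcomplex, was under the filter at 0.603 to 0.877 FPKM in Het and 0.289 to 0.439 FPKM in KO embryos (exact permutation p = 0.0286).

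Of the snoRNP core 5 of 6 tested members fell. Nhp2, an RNA-binding subunit of the box H/ACA particle, was at 84.3, 167, 179 and 112 FPKM in Het and 32.9, 26.2, 34.5 and 18.5 FPKM in KO embryos (-2.21, SE 0.29, adjusted p = 0.000391). Nop10 (-1.16) and Gar1 (-0.89) of the same particle and Nop58 (-1.33) and Nop56 (-1.27) of the box C/D particle fell as well. Gar1 reached a mean of 1 FPKM only in Het embryos (1.91 FPKM, against 0.567 FPKM in KO embryos). Dkc1, the pseudouridine synthase itself, did not pass the test, at 12.9, 19.4, 16.2 and 14.4 FPKM in Het and 14.4, 13.8, 11.9 and 8.19 FPKM in KO embryos (-0.37, SE 0.22, adjusted p = 0.173). Its groups overlapped.

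All 3 multifunctional nucleolar proteins fell. Ncl, nucleolin, was at 30.3, 36.5, 29.4 and 22.9 FPKM in Het and 19.9, 15.2, 17.9 and 10.4 FPKM in KO embryos (-0.89, SE 0.23, adjusted p = 0.0102). Npm1 was at 63.1, 57.2, 70.8 and 53.8 FPKM in Het and 35.6, 31.4, 48.0 and 38.5 FPKM in KO embryos (-0.67, SE 0.19, adjusted p = 0.0132). Ddx21, a helicase linked to RNA polymerase I output, fell by 1.15 on the log2 scale, with a 4.16-fold lower mean FPKM. Its mean reached 1 FPKM only in Het embryos, the group in which it was high. Neither Ncl nor Npm1 overlapped between genotypes.

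**Figure D2:**
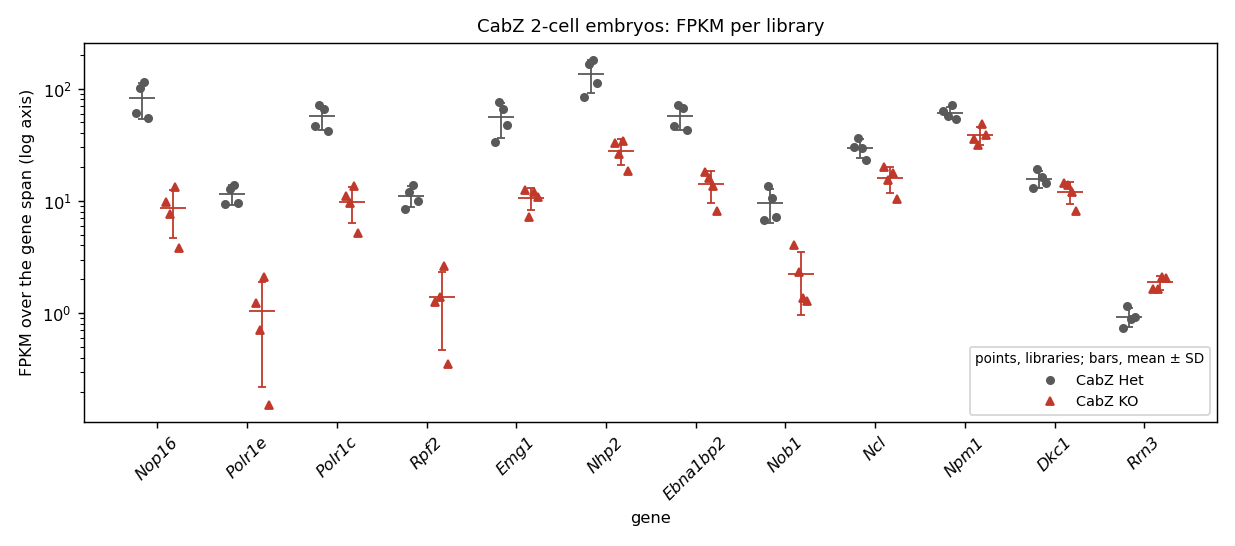
FPKM per library on a log axis for 12 members in CabZ 2-cell embryos, circles for 4 Het and triangles for 4 KO libraries, with the mean and SD as bars. KO libraries lie below Het libraries for 10 of the genes shown, overlap with them for Dkc1 and lie above them for Rrn3.

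Of the 14 members under the filter, 13 had a lower mean in CabZ KO embryos and 7 separated the genotypes downward, beside 6.82% of all genes whose mean lay between 0.01 FPKM and the filter. Over all 58 members, 56 means were lower in KO embryos, Rrn3 and Nle1 being the exceptions. On CPM, which drop the division by gene span and take in more long genes, 51 members were tested, 42 fell and 1 rose, where 32.1% of all genes fell and 27.4% rose.

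Other genes of the pathway fell too. Of 111 other ribosome biogenesis genes 72 were tested, 55 fell and 2 rose (median -1.26). Of 32 genes for proteins of the small ribosomal subunit 29 fell and none rose (median -1.57). The study had already named rRNA processing, ribosome assembly and ribosome biogenesis among the leading terms of genes lowered in these embryos. The decreases of the members and of these lists are thus no independent support for that result. Libraries also differed in other ways. Reads on genes were fewer in each KO (5819240 to 6330118) than in each Het library (7947208 to 8238889). Of 12 oocyte marker genes 10 rose and none fell in KO embryos, with summed levels of 7862 to 9433 CPM in Het and 7956 to 16158 CPM in KO libraries, the highest in KO replicate 4, which also had the lowest sum of the members. Of 14 markers of the 2-cell stage 4 rose and 1 fell (2069 to 4197 against 2108 to 6750 CPM). Duxf3, among the 14, was below 1 FPKM in every Het library (at most 0.787 FPKM) and entered through the KO group. Granulosa and cumulus markers had sums of 96.7 to 113.5 CPM in Het and 74.4 to 114.6 CPM in KO libraries over 12 of 15 genes. Within that sum Fshr (0 reads in Het and 42 to 83 in KO) and Kitl (44 to 69 and 131 to 254) were higher in every KO library. Amhr2 (111 to 160 and 1 to 45) and Nr5a2 (299 to 526 and 84 to 202) were lower in every KO library. Without KO replicate 4, 35 members fell and the median was -1.12. The part of read depth and of these markers in the lower levels was not tested.

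In ZH GV oocytes, which lack Hira, members moved in both directions and the class medians differed in sign. Of 36 members tested 4 rose and 11 fell, beside 25.6% of all 5792 genes tested that rose and 26.3% that fell. For Utp15 and Pes1, counted among the 11, the mean reached 1 FPKM only in Het oocytes; among the 33 members with both means at 1 FPKM or more, 9 fell and 4 rose. The median of the members was -0.04, as was that of all genes. Among tested members the increases on log2(FPKM + 1) were greatest in Npm1 and the box H/ACA proteins Nhp2 and Nop10. Those that fell were in the small subunit class (6 of 17 tested) and the large subunit class (5 of 10), which hold most tested members. On CPM 3 rose and 4 fell of 24 small subunit members, and 2 rose and 3 fell of 13 large subunit members.

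Npm1 was at 16.5, 16.8, 19.6 and 22.9 FPKM in ZH Het and 91.2, 50.7, 39.4 and 74.9 FPKM in ZH KO oocytes, a 3.38-fold higher mean (log2 fold change 1.64, SE 0.25, adjusted p = 0.000592). Nhp2 was at 13.8, 11.55, 13.2 and 17.1 FPKM in Het and 43.9, 38.8, 36.1 and 49.1 FPKM in KO oocytes, a 3.02-fold higher mean (1.53, SE 0.15, adjusted p = 5.7e-05). These members were the 2 that rose more than 2-fold, where 10.5% of all genes did.

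Nop10 was at 52.0, 43.5, 55.8 and 63.9 FPKM in Het and 114, 70.0, 79.7 and 88.4 FPKM in KO oocytes (0.69, SE 0.18, adjusted p = 0.00931). Rpf2 was at 1.49, 1.74, 1.96 and 2.04 FPKM in Het and 4.83, 2.70, 2.72 and 3.245 FPKM in KO oocytes and also rose (0.62, SE 0.16, adjusted p = 0.0111). In each of these 4 genes every KO library lay above every Het library. Npm1 has processed pseudogenes in the mouse genome, and how the authors' counting treated reads shared with them is not given in the sources used here.

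Among members that fell with no overlap between genotypes, the greatest decreases were in small subunit factors. Mphosph10, the Mpp10 protein that carries Imp3 and Imp4, was at 12.4, 12.9, 12.8 and 11.4 FPKM in Het and 7.90, 5.98, 5.74 and 6.26 FPKM in KO oocytes (-0.85, SE 0.12, adjusted p = 0.000521). Wdr36, a propeller protein of the UTP-B subcomplex, was at 4.47, 4.63, 4.11 and 3.43 FPKM in Het and 1.95, 2.22, 2.43 and 1.52 FPKM in KO oocytes (-0.77, SE 0.14, adjusted p = 0.00153). Neither overlapped between genotypes.

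Bms1, the GTPase of the processome, was at 3.81, 2.89, 4.73 and 3.87 FPKM in Het and 2.29, 1.91, 1.18 and 1.99 FPKM in KO oocytes (-0.77, SE 0.17, adjusted p = 0.00422). Utp15 was at 2.15, 2.33, 2.03 and 1.41 FPKM in Het and 0.661, 1.11, 1.26 and 0.684 FPKM in KO oocytes (-0.63, SE 0.16, adjusted p = 0.00789). Both were again separated. The helicase Ddx56 had the lowest estimate (-0.97, SE 0.36, adjusted p = 0.047), but its genotypes overlapped.

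**Figure D3:**
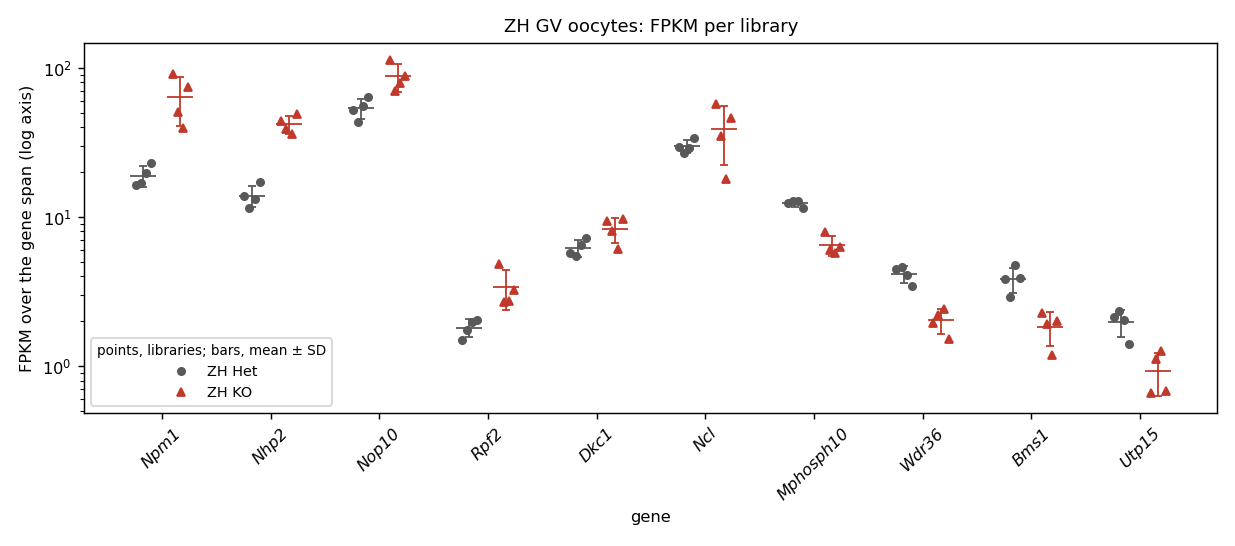
FPKM per library on a log axis for 10 members in ZH GV oocytes, circles for 4 Het and triangles for 4 KO libraries, with the mean and SD as bars. Npm1, Nhp2, Nop10 and Rpf2 are higher in every KO library, Mphosph10, Wdr36, Bms1 and Utp15 are lower in every KO library, and Dkc1 and Ncl overlap.

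Dkc1 and Ncl did not pass the test. Dkc1 was at 5.69, 5.49, 6.46 and 7.204 FPKM in Het and 9.33, 8.04, 6.10 and 9.64 FPKM in KO oocytes (0.35, SE 0.16, adjusted p = 0.0841). Ncl was at 29.3, 26.8, 29.2 and 33.9 FPKM in Het and 57.2, 34.7, 18.0 and 46.2 FPKM in KO oocytes (0.27, SE 0.30, adjusted p = 0.471). For Ncl the KO libraries lay on both sides of the Het range.

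Among 22 members under the filter, 5 were higher in every KO library (Nop16, Tsr1, Nle1, Mdn1 and Rrs1), where 23.2% of all such genes were, and 2 were lower in every KO library (Las1l and Polr1b), where 12.9% were. Both counts were near those shares. Mean FPKM of these members were at most 1.20 in both genotypes, and Het means of the 5 higher ones were at most 0.234. Their ratios rest on these low Het values and exceeded that of Npm1. KO means were 10.1-fold higher for Mdn1, 9.25-fold for Nle1, 8.21-fold for Nop16, 5.13-fold for Tsr1 and 3.66-fold for Rrs1. Of these, Tsr1 was tested on CPM and rose there (2.20, limma adjusted p = 2.2e-05). Mdn1 was at 0.00264 to 0.0137 FPKM in Het and 0.0396 to 0.1002 FPKM in KO oocytes, which is 4 to 33 against 75 to 159 reads, and Polr1b at 0.0903 to 0.160 against 0.0150 to 0.0736 FPKM (exact permutation p = 0.0286 each). Heatr1 (0.472 to 0.780 and 0.360 to 0.653 FPKM), Nob1 (0.584 to 0.795 and 0.770 to 1.33), Bop1 (0.234 to 0.355 and 0.118 to 0.708), Polr1a (0.1704 to 0.272 and 0.110 to 0.187) and Rrn3 (0.378 to 0.587 and 0.146 to 0.586) overlapped between Het and KO oocytes.

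The balance of the ZH comparison turned with the scale. On CPM, 10 of 49 members tested rose and 7 fell, against 26.7% and 26.1% of all genes, and with each library scaled to the reads it has in the deposited values, 11 rose and 6 fell. The listed genes held 74.2 to 74.7% of the depth behind the deposited FPKM in Het and 66.0 to 68.2% in KO libraries. FPKM thus ran lower in KO libraries relative to reads on listed genes, an offset that the other 2 scales do not carry. Its part in the counts was not tested. ZH KO replicates 1, 2 and 4 had member sums of 7750, 6396 and 7197 CPM, above every Het library, and replicate 3 had 5048 CPM, inside the Het range; without replicate 3 9 members rose. The count that fell was 5 without Het replicate 1, 6 without Het replicate 2 and 7 without KO replicate 4. Of the other ribosome biogenesis genes 17 of 64 tested rose and 15 fell, and 18 of 30 genes for proteins of the small ribosomal subunit rose and none fell. Oocyte markers were lower in KO oocytes, where 5 of 12 fell. Their sums were 27120 to 29555 CPM in Het and 17893 to 29598 CPM in KO libraries. All 8 tested 2-cell stage markers rose. Of these, Zscan4f, Usp17lc and Gm5039 were below 1 FPKM in every Het library (at most 0.388, 0.0511 and 0.958 FPKM). These markers thus entered through the group in which they were high. Granulosa and cumulus markers had sums of 53.2 to 65.7 CPM in Het and 60.3 to 114 CPM in KO libraries over 14 of 15 genes; 4 of them had more reads in every KO library, namely Fshr (5 to 48 in Het and 58 to 194 in KO), Inha (0 to 21 and 30 to 81), Inhba (0 to 6 and 13 to 28) and Ptgs2 (0 to 7 and 16 to 76), while Foxl2 had 0 to 2 and 0. The part of these differences in the results was not tested.

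In CabZ GV oocytes few members changed. Of 36 tested, 2 rose and 1 fell, beside 8.2% of all 6339 genes tested that rose and 5.73% that fell, and no member changed more than 2-fold. The median was 0.03, with -0.02 for all genes. The small change stood beside the broad decrease that the same line showed at the 2-cell stage; the tables were normalised separately and the difference between stages was not tested.

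Dkc1 was at 8.04, 6.16, 8.54 and 7.61 FPKM in CabZ Het and 11.7, 13.7, 10.3 and 10.6 FPKM in CabZ KO oocytes (log2 fold change 0.55, SE 0.13, adjusted p = 0.0186). Imp4, a U3 snoRNP protein, was at 24.6, 18.3, 31.8 and 26.6 FPKM in Het and 37.1, 39.0, 34.6 and 36.7 FPKM in KO oocytes (0.55, SE 0.15, adjusted p = 0.0394). Its partner Imp3 was the member that fell, at 100.3, 104, 82.5 and 82.0 FPKM in Het and 64.4, 63.1, 63.0 and 70.3 FPKM in KO oocytes (-0.49, SE 0.11, adjusted p = 0.0174). For each of them the genotypes did not overlap. These calls rested on single libraries: 1 member rose without any one of Het replicates 1, 2 or 4 or of KO replicates 1, 3 or 4, none (0) fell without Het replicate 1, and 2 fell without KO replicate 2.

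Npm1 was higher in every KO library, at 32.2, 32.1, 36.2 and 38.5 FPKM in Het and 42.5, 40.5, 61.3 and 50.1 FPKM in KO oocytes, but did not pass the test (0.46, SE 0.14, adjusted p = 0.059). Ncl overlapped, at 42.3, 25.2, 54.9 and 52.2 FPKM in Het and 44.3, 48.9, 63.1 and 58.4 FPKM in KO oocytes (0.34, SE 0.23, adjusted p = 0.383). Under the filter, Heatr1, Nob1, Bop1, Mdn1, Polr1a, Polr1b, Rrn3 and Fbl all overlapped between genotypes. Of 6 tested markers of the 2-cell stage 4 rose and none fell. Their sums were 220 to 239 CPM in Het and 439 to 532 CPM in KO libraries. One of the 6, Zscan4f, was below 1 FPKM in every Het library (0.389 to 0.683 FPKM) and entered through the KO group. None of 12 oocyte markers passed the test, though 11 had a lower estimate (22354 to 32156 against 22223 to 24174 CPM). Granulosa and cumulus markers had sums of 58.9 to 74.6 CPM in Het and 99.98 to 146 CPM in KO libraries over 11 of 15 genes. Within that sum Fshr went from 7 to 14 reads in Het to 279 to 455 in KO libraries, while Inha had 5 to 22 and 0 to 12. Foxl2, Amh and Amhr2 were not analysed in that table. Whether these differences bear on the 3 members that passed was not tested.

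Neither direction was called for any member in the injected 2-cell embryos. Of 23 members tested, 0 rose and 0 fell with limma and 1 had an unadjusted p under 0.05, where 0.0932% of all 4293 genes tested rose and 1.7% fell. The libraries labelled Zscan4 held 2874 to 3320 CPM of member reads and the GFP libraries 3238 to 3568 CPM. Sums of 2-cell stage markers were 3978 to 5800 CPM in GFP and 1378 to 3540 CPM in libraries labelled Zscan4, without overlap. Of the 14 tested, 12 had a lower estimate and none passed the test. Sums of oocyte markers (19928.5 to 21462.9 and 17025.7 to 20446.5 CPM) and of granulosa and cumulus markers (39.4 to 47.2 and 29.9 to 45.2 CPM) overlapped. Of 12 oocyte markers tested, 10 had a higher and 2 a lower estimate in libraries labelled Zscan4, and none passed the test. Without overlap 3 of them were higher and 1 was lower. The part of these differences in the members' levels was not tested.

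Nop16 had the smallest p, at 1.52, 2.21, 2.74 and 2.15 FPKM in GFP and 1.14, 0.401 and 1.40 FPKM in libraries labelled Zscan4 (-0.70, SE 0.22, adjusted p = 0.141). Nop56 was at 4.27, 1.69, 4.42 and 2.27 against 3.27, 10.7 and 5.67 FPKM (0.80, SE 0.37, adjusted p = 0.273). Nmd3 was at 1.69, 1.64, 1.51 and 1.39 against 1.21, 1.22 and 0.773 FPKM (-0.31, SE 0.15, adjusted p = 0.284). Nop16 and Nmd3 did not overlap between groups and Nop56 did.

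Of the genes followed in every table, Npm1 was lower in every one of the libraries labelled Zscan4 but did not pass the test, at 86.1, 79.5, 77.8 and 76.3 FPKM in GFP and 67.5, 54.6 and 72.7 FPKM in them (-0.30, SE 0.15, adjusted p = 0.301). Ncl (-0.23, adjusted p = 0.505) and Dkc1 (-0.13, adjusted p = 0.763) also missed the threshold of limma. Heatr1, Nob1, Bop1, Polr1b, Rrn3 and Fbl were under the filter with overlapping groups, and Polr1a was at 0.0160 to 0.0362 FPKM in GFP and 0.00593 to 0.0153 FPKM in libraries labelled Zscan4, or 9 to 91 reads. Of the 34 members under the filter, 4 were higher in each library labelled Zscan4 than in each GFP library, where 6.61% of all such genes were, and 1 (Polr1a) was lower, where 4.4% were. Those higher were Tsr1 (0.0147 to 0.206 against 0.407 to 0.478 FPKM, exact permutation p = 0.0286), Utp6, Wdr36 and Nle1. The exact permutation p was 0.0571 for Utp6, 0.143 for Wdr36 and 0.0571 for Nle1, and Nle1 had 3 to 8 reads per library. Of 37 other ribosome biogenesis genes tested none was called. Of 28 tested genes for proteins of the small ribosomal subunit 1 fell and none rose. Of these 28, 26 had a lower estimate and 7 were lower without overlap (median -0.37, with 0.03 for all genes).

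**Figure D4:**
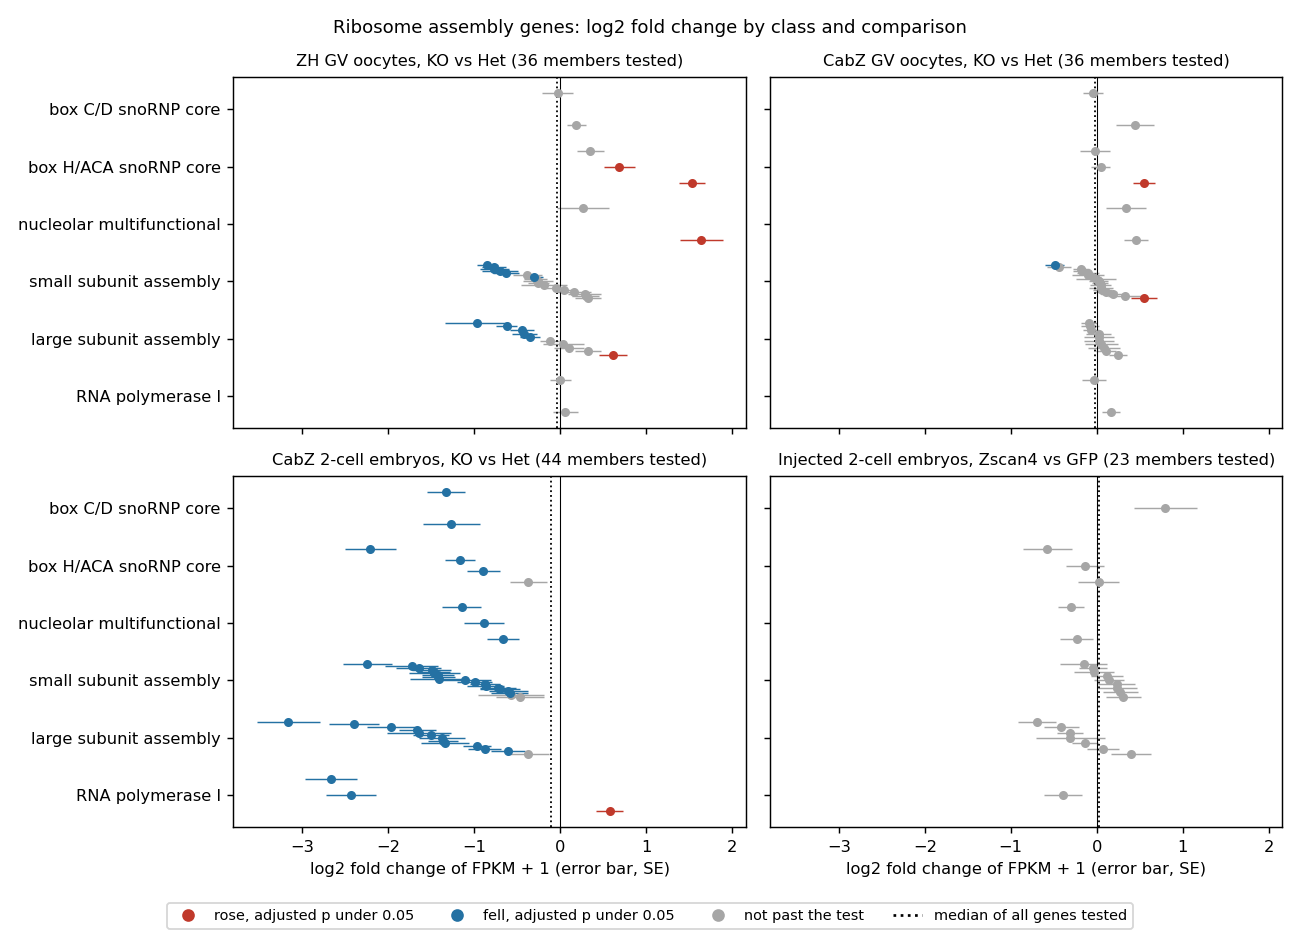
Log2 fold change with its SE (x axis) of each tested member, by class (y axis), in 4 panels for the 4 comparisons; red points rose, blue points fell and grey points did not pass the test, and the dotted line is the median of all genes tested. Members lie left of 0 in nearly every class in CabZ 2-cell embryos (39 of 44 fell), on both sides in ZH oocytes and near 0 in CabZ oocytes and injected embryos.

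Some members changed across the experiments in ways that their levels show directly. Nop16 was close to absent in CabZ GV oocytes, with 1 to 11 reads in Het and 0 to 4 in KO libraries, and stood at 2671 to 5452 reads in CabZ Het and 131 to 497 reads in CabZ KO 2-cell libraries. Rrs1 had 0 to 11 reads in CabZ GV libraries and 165 to 366 reads in CabZ Het 2-cell libraries. Nhp2 rose in ZH KO oocytes, did not pass the test in CabZ KO oocytes (0.05) and fell in CabZ KO embryos. Exons of Nhp2, Emg1, Ncl, Nop56 and Imp4 are among those of 22 members that overlap exons of another gene in the annotation, and reads of the unstranded libraries cannot be divided between such genes.

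Positions on GRCm38 (mm10) place the members on many chromosomes. Nop16 lies at chr13:54584185-54590090 on the minus strand, Polr1e at chr4:45018583-45036565 on the plus strand, Polr1c at chr17:46243920-46248054 on the minus strand, Nhp2 at chr11:51619735-51623714 on the plus strand, Npm1 at chr11:33152287-33163206 on the minus strand and Rrn3 at chr16:13780708-13814839 on the plus strand. The members that fell together in CabZ KO embryos are thus not one linked cluster.

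The promoters of the members were searched for CACGTG, the canonical E-box that MYC family factors bind and a common element of ribosome assembly genes. The motif is its own reverse complement, so a match counts for both strands. Of the 58 members 50 had a RefSeq promoter of 300 bases (250 before and 50 after the start site, GRCm38.p6), and 14 of these (28%) held the motif. Among all 27025 genes with a promoter 8.09% held it, and among 4367 of the genes tested in CabZ 2-cell embryos 11.9%. The 5 matches whose flanks of 30 bases end before the start site are shown because they include Rrn3, the member that rose, beside Imp4, Nmd3 and Nop2, members that fell in CabZ KO embryos, and capitals mark the motif.
Imp4 (chr1:34439678-34439743, plus strand): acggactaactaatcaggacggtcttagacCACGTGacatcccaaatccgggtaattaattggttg
Nmd3 (chr3:69721911-69721976, plus strand): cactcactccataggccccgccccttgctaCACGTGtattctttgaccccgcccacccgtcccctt
Nop2 (chr6:125131793-125131858, plus strand): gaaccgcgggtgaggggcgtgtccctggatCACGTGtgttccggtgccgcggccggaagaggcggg
Rrn3, first match (chr16:13780454-13780519, plus strand): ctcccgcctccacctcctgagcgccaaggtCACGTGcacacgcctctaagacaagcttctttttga
Rrn3, second match (chr16:13780621-13780686, plus strand): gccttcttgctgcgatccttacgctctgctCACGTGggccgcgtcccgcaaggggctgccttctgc

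The first bases of the motifs lie 121 bases before the start site in Imp4, 114 in Nmd3, 60 in Nop2, and 215 and 48 in Rrn3. Rrn3 thus carries 2 copies before its start site. A match describes the letters and is no evidence of a bound factor, and promoters without one may hold other elements.

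Open chromatin at the members was read from ATAC-seq peaks of CabZ GV oocytes, called by MACS2 in each of 3 Het and 3 KO libraries. A peak lay within 500 bp of the start site for 10, 19 and 37 of 58 members in Het A, B and C, and for 24, 5 and 10 in KO A, B and C. In all genes the shares were 11.01, 22.1 and 39.4% in Het and 16.7, 5.32 and 6.87% in KO libraries, and among genes tested in the CabZ GV table they were 13.4, 27.9 and 48.2% in Het and 23.0, 7.70 and 10.1% in KO libraries. The members' shares were 17.2, 32.8 and 63.8% in Het and 41.4, 8.62 and 17.2% in KO libraries, above both in each library, though in KO B by little. The number of peaks differed between libraries, from 19160 to 111327, and the members' counts overlapped between genotypes. Bms1 had a peak in all 6 libraries and Ncl in 5, while 8 members (Mdn1, Nhp2, Nop58, Polr1b, Rpf1, Rpf2, Utp3 and Wdr75) had none. With the 19160 highest peaks of each library the counts were 6, 11 and 19 in Het and 15, 5 and 8 in KO libraries.

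**Figure D5:**
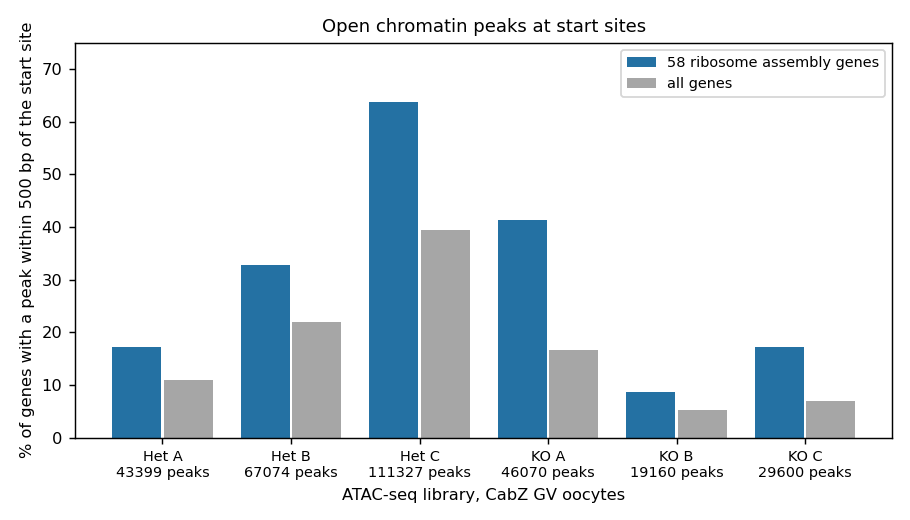
Percentage of genes with an ATAC-seq peak within 500 bp of the start site (y axis) in each library of CabZ GV oocytes (x axis, with its number of peaks), blue for the 58 members and grey for all genes. The members' share is above that of all genes in each library and is highest in Het C, the library with the most peaks.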

How the data were processed

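RNA was measured with Smart-seq2 libraries of ZH GV oocytes, CabZ GV oocytes, CabZ 2-cell embryos and injected 2-cell embryos, and chromatin with ATAC-seq of CabZ GV oocytes. Per the submitters' processing notes the authors used STAR 2.5.3a, Partek and mm10. The ZH and Zscan4 tables were deposited as FPKM over the whole gene span plus a constant (0.01 or 0.001), which was subtracted. The CabZ tables were deposited by the authors as a score, which the values show to be reads divided by the span 2 times; each score was multiplied by the span and divided by the library's total of reads, as the rule for these genes asks. Peak lists were deposited with the fold enrichment ratio and -log10 q of each peak as MACS2 gave them to the authors.

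Genes averaging 1 FPKM or more over a table's libraries were tested within each table with limma 3.58.1 (R 4.3.3) on log2(FPKM + 1), with no block and no trend, and p-values were adjusted over all genes of the table by the Benjamini-Hochberg method. This restored unit replaced the unit assumed for the CabZ tables in the design. Genes under the filter were compared by the two-sided exact permutation test. Summed levels and lists are described without a test. The fit was tested on simulated data. Alternatives were another pseudocount, filter, scaling, unit and variance trend, a replicate block and leaving out each library.

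The members and lists were chosen with earlier results of these data known. Named were 11 genes in every table, up to 7 separated members with the largest changes per table, or the 3 with the smallest p where none passed, and every member that changed more than 2-fold; other genes were named after their values were seen. Replicate numbers did not pair the libraries. Coordinates come from GENCODE M21 and equalled those of the tables for 55 of 58 members. Exons cover a median of 26.4% of a member's span, so FPKM over the span are low for genes with long introns. Depth is the estimated number of reads on genes. Whether read pairs shared by several genes were divided is not given in the sources used here, and the number of ATAC-seq reads is unknown.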

Additional observations from a re-analysis of the deposited data

Results flagged for a closer look

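In 152 groups of 4 libraries examined for a library far from the other 3, Utp3 at 32.57 FPKM in CabZ KO 2-cell replicate 1 was the single flag; chance flags about 1 in 20 groups. The other KO libraries were at 17.0 to 19.4 FPKM and the Het libraries at 26.3 to 64.0 FPKM, and without this library the genotypes of Utp3 would not overlap.

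Npm1 moved in opposite directions at the 2 stages of the CabZ line. Its mean FPKM in KO libraries was 1.399 times that in Het libraries in GV oocytes and 0.6269 times in 2-cell embryos, with every KO library above every Het library in the first and below in the second. The difference between stages was not tested, because the tables were normalised separately.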

How the results depend on the processing

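In CabZ 2-cell embryos the count of members that fell was 34 to 42 under the other settings, except 23 of 24 when genes had to average 5 FPKM, where none rose (0), and 26 of 41 with the authors' library scaling; leaving out a library gave 31 to 39 that fell, 1 that rose and medians of -1.43 to -1.12. The median moved to -1.66 with a pseudocount of 0.1 and on CPM, -0.89 without a filter, -1.06 with median scaling and -0.87 with the authors' library scaling, where the medians of all genes were 0.13 and 0.39. In ZH oocytes the members that rose numbered 10 without a filter and on CPM and 11 when scaled to the reads of the table, and those that fell 5 at a mean of 5 FPKM, 7 on CPM and 6 when scaled to the reads of the table; leaving out a library gave 4 to 9 and 5 to 11. The ZH median was 0.10 at 5 FPKM, -0.19 with median scaling, -0.13 with quantile normalization and 0.090 when scaled to the reads of the table, where the medians of all genes were 0.04, -0.19, -0.07 and 0.08, and -0.09 to -0.03 without 1 library. In CabZ oocytes 1 member rose with a pseudocount of 0.1 and with the authors' library scaling, 2 fell with quantile normalization, and leaving out a library gave 1 to 2 that rose, 0 to 2 that fell and medians of -0.05 to 0.12. In injected embryos 0 rose and 0 fell under every setting run, and the median was -0.13 to 0.03 without 1 library. The causes were not tested. Members with a start-site peak numbered 0, 0 and 3 in Het and 0, 0 and 0 in KO libraries at -log10 q of at least 10, 11 and 19 in Het B and C and 15 in KO A with equal numbers of peaks, and 4 in KO C within 100 bp.

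Replicate numbers are shared by the groups, but in no table did every pair of same-numbered libraries deviate together (correlations of -0.41 to 0.40), nor did every library correlate best with its own number. With the replicate block 36 members fell and 1 rose in CabZ 2-cell embryos, 8 fell and 4 rose in ZH oocytes, and 0 fell and 0 rose in CabZ oocytes and in injected embryos, where GFP replicate D has no partner. FPKM over the whole span is low for long genes: Heatr1, under the filter in CabZ 2-cell embryos, had 81 to 327 reads and fell on CPM, while Fbl had 6 to 65 reads, at which small differences were not detectable.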
